A study of Mus musculus with 5 samples.

Results

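The genes described here encode the electrically silent subunits of voltage-gated potassium (Kv) channels and Kv2.2, a channel subunit that they assemble with. They are 9 of the 53700 genes in the count table: Kcng4, Kcng1, Kcng2 and Kcng3 (the Kv6 subunits), Kcns1, Kcns2 and Kcns3 (Kv9), Kcnv1 (Kv8.1) and Kcnb2 (Kv2.2). The genes were chosen by name, matching Ensembl IDs to symbols, after results of the WT and Flox comparison were known: Kcng4 had the lowest p-value of all genes in it, and Kcns3 was among the genes that the study followed up. The differences of these genes between groups are therefore given as a description, with no p-value. Where one is said to be called, it passed the threshold used for all genes, and nothing is read from that. The other silent subunit genes, Kcnf1 (Kv5.1) and Kcnv2 (Kv8.2), are shown for comparison.

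The study purified ribosome-bound RNA from midbrain by BAC-TRAP, in which an EGFP-tagged ribosomal protein, L10a, is made in cells that express Cre recombinase and is then captured with an antibody against EGFP. All C57BL/6 mice carried the L10a transgene and received AAV:THCre, a virus that expresses Cre under a tyrosine hydroxylase promoter, so Flox and WT differ in the Esrrg alleles and not in virus or tag. In L10a;Esrrg Flox mice Cre also deletes an exon of Esrrg, which encodes the nuclear receptor ERRγ, whereas L10a;Esrrg WT mice have intact alleles. There were 3 WT libraries (replicates 2, 3 and 4) and 2 Flox libraries (replicates 2 and 4), each from pooled midbrains of mice aged 4 months, taken 1 month after deletion. The libraries held between 20635855 and 23105058 reads assigned to genes.

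A Kv channel is made of 4 subunits around a potassium-selective pore. Kv2 channels carry delayed rectifier current, which repolarizes the membrane and limits firing during sustained activity. Silent subunits of the Kv5, Kv6, Kv8 and Kv9 families do not form working channels alone. They join Kv2 subunits in mixed tetramers and change their voltage dependence, kinetics and pharmacology, so the mix of silent and Kv2 subunits in a neuron sets properties of its Kv2-type current.

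Promoter sequence is shown for the genes with the lowest Flox levels relative to WT, Kcng4 and Kcns3, because the deleted receptor is a DNA-binding factor. RefSeq windows (GRCm38.p6, 250 bases before to 50 after an annotated start) were examined for 4 of the 9 genes, namely Kcng4, Kcng3, Kcns1 and Kcns3, the last with 2 starts. Promoters of the other genes were not searched, so nothing is said of them. Both printed windows lie on the minus strand and read 5′ to 3′. Capitals mark CpG dinucleotides. The Kcng4 window is chr8:119635631-119635930 and the Kcns3 window, at the downstream of its starts, is chr12:11150324-11150623.
Kcng4: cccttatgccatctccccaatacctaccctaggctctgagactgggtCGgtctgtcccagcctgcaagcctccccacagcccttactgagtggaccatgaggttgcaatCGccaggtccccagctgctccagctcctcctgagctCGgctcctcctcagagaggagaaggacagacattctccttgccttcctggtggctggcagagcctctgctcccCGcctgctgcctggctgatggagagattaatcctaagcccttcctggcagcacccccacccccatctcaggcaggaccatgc
Kcns3: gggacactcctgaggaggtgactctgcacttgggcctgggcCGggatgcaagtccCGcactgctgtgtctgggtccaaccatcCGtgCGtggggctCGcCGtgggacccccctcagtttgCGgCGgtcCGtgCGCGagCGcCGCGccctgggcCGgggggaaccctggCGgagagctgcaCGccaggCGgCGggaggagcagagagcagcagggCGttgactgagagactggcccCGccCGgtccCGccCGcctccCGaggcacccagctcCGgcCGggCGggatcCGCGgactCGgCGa
The Kcng4 window held 4 CpGs at 61.3% GC and the printed Kcns3 window 32 CpGs at 74.0% GC, whereas the window at the upstream start of Kcns3 (chr12:11150793-11151092) held 9 CpGs at 47.0% GC. Which of these starts was used in these cells was not tested. The median over 32851 windows of this length was 7 CpGs and 52.7% GC, and 38.0% of windows had no more CpGs than that of Kcng4. The nuclear receptor half-site AGGTCA, its extended form AAGGTCA and the ERR-type element TNAAGGTCA, which contains both, were searched on both strands. None of the 5 windows of the 4 genes held a match. Of all windows, 16.26% held AGGTCA, 4.72% AAGGTCA and 1.28% TNAAGGTCA, so a window with no match is the common case, and it says only that these letters are not in these bases.

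Levels in WT were compared between genes as normalized counts per kilobase of annotated exon. Of the silent subunit genes and Kcnb2, Kcng4 was the most abundant, at 336 ± 32.6 (SD, n = 3), and Kcns3 was next at 152 ± 7.80. Kcnf1 was at 98.2 ± 21.7, below all 3 libraries of Kcns3. Then came Kcng2 (57.3 ± 7.51), Kcns2 (44.7 ± 6.76) and Kcns1 (41.9 ± 9.80), each overlapping the next. Kcng1 (21.5 ± 6.11) and Kcnv1 (19.9 ± 2.86) also overlapped, and Kcnb2 was at 12.3 ± 1.77, below all 3 libraries of Kcnv1. The place of Kcnb2 depends on its 15165 bases of annotated exon. Before division by length its WT mean was 186 normalized counts. That was above Kcng2 (171), Kcns1 (114), Kcng1 (97.1) and Kcnv1 (91.5), and below Kcns2 (250), Kcnf1 (470), Kcns3 (481) and Kcng4 (1279). Kcng3 and Kcnv2 were close to the detection floor, with at most 4 and 7 reads in a library. In WT, Kcng4 was thus 2.21-fold above Kcns3, with no overlap between the libraries of these genes, and Kcns3 was 1.55-fold above Kcnf1.

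Kcng4 (ENSMUSG00000045246.12, chromosome 8) encodes Kv6.4, a modulatory subunit with no pore current of its own. Its normalized counts were 1275, 1158 and 1406 in WT replicates 2, 3 and 4, and 669 and 628 in Flox replicates 2 and 4. All Flox values were far below all WT values, and the Flox libraries were close to each other. The means were 1279 ± 124 (SD, n = 3) and 648 ± 28.5 (SD, n = 2), a log2 fold change of -0.98 (SE 0.133). The Flox level was 0.507 times that of WT, with a 95% interval from 0.423 to 0.607. Kcng4 was chosen for its low p-value in this same comparison, and the interval takes no account of that choice. Over the 11 alternatives to the processing, which refit the same libraries or all but 1 of them, the log2 fold change lay between -1.05 and -0.91. Without Flox replicate 4 it was at -0.94. In bulk RNA of this kind, fewer cells of a type and less RNA per cell cannot be told apart.

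**Figure D1:**
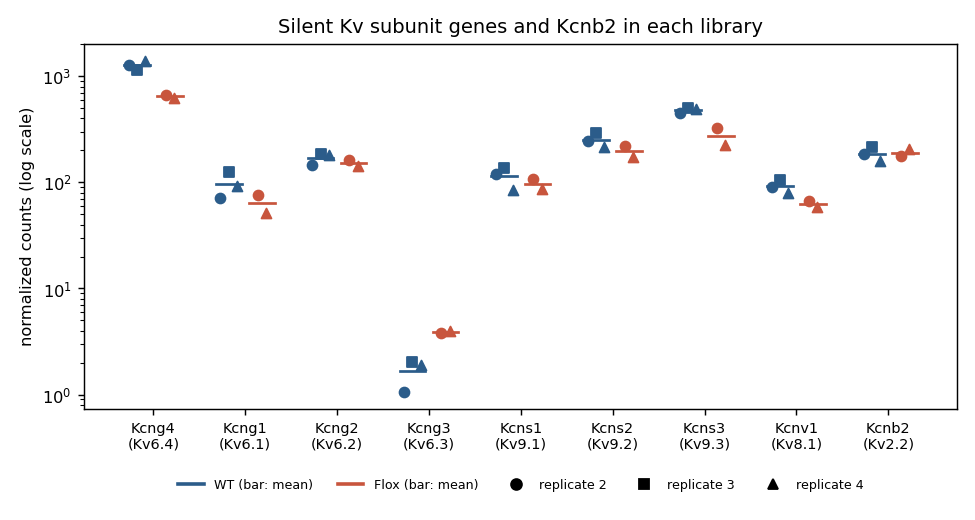
Normalized counts (y axis, log scale) of the 9 genes in each library, WT in blue and Flox in red, with marker shapes for the replicate number and a bar at each group mean. Among the genes with more than a few reads, Kcng4 and Kcns3 have the clearest gap between groups (Kcng4 at 1158 to 1406 in WT and 628 to 669 in Flox). Kcng3 lies at 4 or fewer normalized counts throughout, with its Flox values above its WT values.

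Kcns3 (ENSMUSG00000043673.12, chromosome 12) encodes Kv9.3, which slows and shifts Kv2 currents in mixed channels. It had 453, 499 and 491 normalized counts in WT and 323 and 224 in Flox. Both Flox libraries were below the WT range, and Flox replicate 4 was the lower. The means were 481 ± 24.7 (SD, n = 3) and 273 ± 70.1 (SD, n = 2), with a log2 fold change of -0.82 (SE 0.186) and a Flox level 0.568 times that of WT (95% interval from 0.441 to 0.731). Its size depended on Flox replicate 4. The log2 fold change was -0.58 without that library and -1.11 without Flox replicate 2, and Kcns3 was no longer called without Flox replicate 4, a fit that called 0.449% of the genes tested, or with the replicate number as a block, where 1.97% were called.

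**Figure D2:**
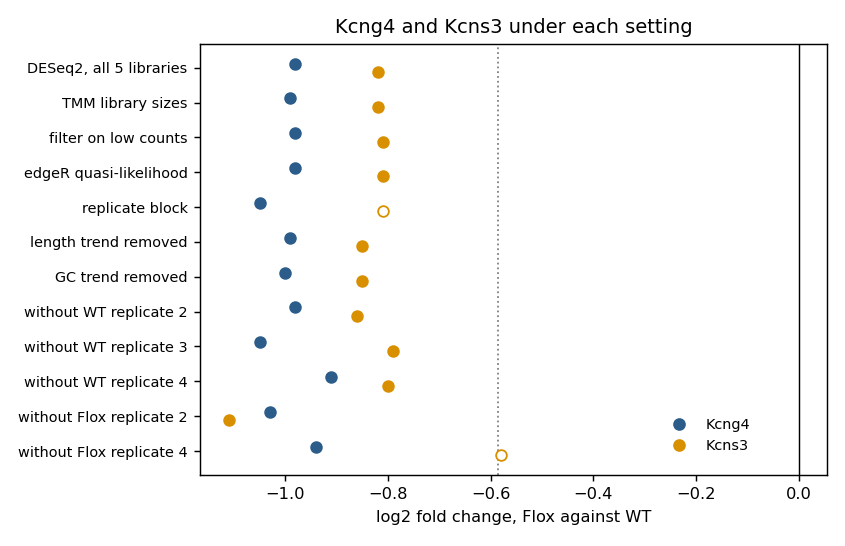
Log2 fold change of Kcng4 (blue) and Kcns3 (orange) in Flox against WT (x axis) under each way of processing the counts (rows), where filled points were called at an adjusted p under 0.05 with a fold change of at least 1.5 (dotted line). Kcng4 stays between -1.05 and -0.91, whereas Kcns3 runs from -1.11 to -0.58 and has open points with the replicate block and without Flox replicate 4.

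The other Kv6 genes had smaller differences at lower counts. Kcng1, which encodes Kv6.1, had 71.6, 126 and 93.2 normalized counts in WT and 75.9 and 51.7 in Flox. The groups overlapped, at a log2 fold change of -0.61 (SE 0.343). Kcng2 (Kv6.2) was at 145, 186 and 182 in WT and at 162 and 144 in Flox, with overlap and a log2 fold change of -0.16 (SE 0.227). On the opposite strand its exons overlap D330025C20Rik, and because the libraries do not keep strand its count is uncertain. Kcng3 (Kv6.3) had 1, 2 and 2 reads in WT and 4 in each Flox library. At this depth 3 reads are the limit that a count of 0 allows, so no fold change is given.

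Of the Kv9 and Kv8 genes, Kcns2 (Kv9.2) had 245, 289 and 214 normalized counts in WT and 219 and 175 in Flox. These ranges overlapped, and the log2 fold change was -0.34 (SE 0.214). Kcns1 (Kv9.1), a gene known from sensory neurons and pain, had 120.1, 137 and 84.5 in WT and 109 and 86.5 in Flox, with a log2 fold change of -0.22 (SE 0.294) and overlap. Kcnv1 (Kv8.1) was at 90.6, 105 and 78.8 in WT and at 66.3 and 58.7 in Flox. It was the only gene besides Kcng4 and Kcns3 with both Flox libraries below all WT libraries, but its log2 fold change of -0.55 (SE 0.305) has a 95% interval that reaches from -1.15 to 0.05. At their counts Kcng1 and Kcnv1 leave a halving open as well as no change.

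Kcnb2, the channel-forming member, had 183, 214 and 160 normalized counts in WT and 176 and 206 in Flox. The groups overlapped fully, with a log2 fold change of 0.04 (SE 0.220) and a fold between 0.762 and 1.383 (95% interval). Kcnf1 (Kv5.1), silent on its own like the Kv6 subunits, was at 397, 589 and 425 in WT and 464 and 483 in Flox, with a log2 fold change of 0.01 (SE 0.189, DESeq2 adjusted p = 0.989). Kcnv2, a silent subunit known from photoreceptors, had between 0 and 7 reads and could not be compared.

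**Figure D3:**
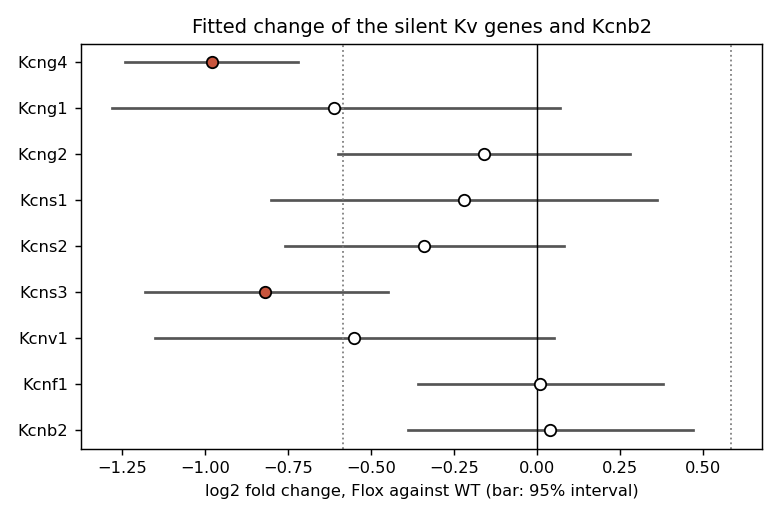
Log2 fold change in Flox against WT (x axis) of 8 of the 9 genes and of Kcnf1, with 95% intervals. Filled points were called and dotted lines mark a fold change of 1.5. Kcng4 (-0.98) and Kcns3 (-0.82) are the only filled points, and the intervals of all the others include 0. The intervals take no account of the choice of Kcng4 and Kcns3 after results were known.

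Counted together, 8 of the 9 genes passed the filter on low counts and had an adjusted p, and 2 of these, Kcng4 and Kcns3, were called, both lower in Flox. Of all 15724 genes tested, 1.41% were called lower and 3.18% in either direction. Both Flox libraries lay below all WT libraries in 3 of the 8 genes, an arrangement seen in 22.5% of all genes tested, and 7 of the 8 had a log2 fold change below 0, against 50.9% of all. The median was -0.44 over these 8 genes and -0.28 without Kcng4 and Kcns3, beside -0.006 over all genes tested. Since Kcng4 and Kcns3 were the reason for the choice, nothing is read from these counts.

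The make-up of the silent pool was then taken within each library, where it does not depend on scaling between libraries. It is given as the share of each gene in the reads per kilobase summed over the 10 silent subunit genes, so that a lower share of 1 gene raises the shares of the others. Kcng4 made up 45.6%, 37.9% and 47.2% of the pool in WT and 32.5% and 34.9% in Flox. Both Flox libraries were below the WT libraries, by the smallest margin to WT replicate 3, and the difference of the means was -9.93 percentage points. An exact permutation test of 3 against 2 libraries cannot reach a p under 0.1, and none was run on chosen genes. The share of Kcns3 was 19.5%, 19.7% and 19.8% in WT and 18.9% and 14.9% in Flox. Flox replicate 4 made most of this difference, which was -2.78 percentage points with all libraries and -0.82 without that library. Kcnf1 made up 11.3% to 15.3% in WT and 17.9% and 21.3% in Flox, and Kcng2 6.63% to 7.78% in WT and 10.04% and 10.2% in Flox. Both genes were thus a larger part of the pool in Flox, while their own normalized counts overlapped between the groups.

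**Figure D4:**
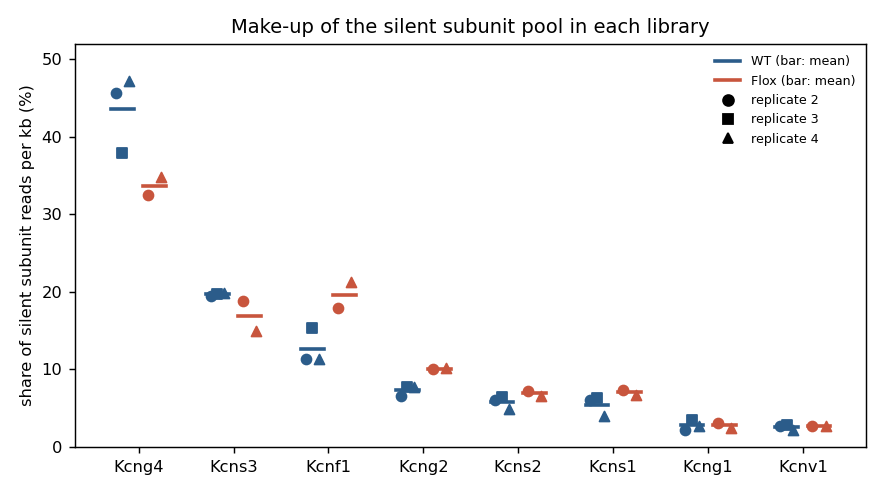
Share of each gene in the summed reads per kilobase of the 10 silent subunit genes (y axis, percent) in each library, for the 8 genes with more than a few reads. Bars are group means, colours mark WT and Flox, and Kcng4 is at 37.9% to 47.2% in WT and 32.5% and 34.9% in Flox.

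Other Kv genes give the context for these differences. Of 27 pore-forming Kv1, Kv3, Kv4, Kv7 and Kv10 to Kv12 genes examined, 24 had an adjusted p, and 3 passed, all lower, where 8.25% of all genes tested passed and 4.05% did so as lower. They were Kcnc1, Kcnc4 and Kcnd3. Kv3 channels open and close rapidly and allow fast firing, and Kcnd3 encodes Kv4.3, which carries the A-type current that paces dopaminergic neurons. Kcnc4 (Kv3.4), the single one that also met the fold change of 1.5 (3.18% of all genes did), had 3720, 3371 and 2881 normalized counts in WT and 2559 and 1529 in Flox, with a log2 fold change of -0.70 (SE 0.186, DESeq2 adjusted p = 0.00565). Kcnc1 (Kv3.1) had 7049, 6886 and 6203 in WT and 5150 and 4581 in Flox. It was lower by less, at -0.46 (SE 0.108, DESeq2 adjusted p = 0.00123). Kcnd3, singled out after its values were seen, was at -0.41 (SE 0.111, DESeq2 adjusted p = 0.00739). The abundant Kv1 genes Kcna2 (-0.27, SE 0.117, DESeq2 adjusted p = 0.143) and Kcna6 (0.06, SE 0.101, DESeq2 adjusted p = 0.826) did not pass. Both Flox libraries were below all WT libraries in 10 of the 24 genes and above them in 0, against 22.5% and 19.9% of all genes tested. At the same threshold of adjusted p alone, 0 of the 24 passed in edgeR, where 1.42% of all genes did (9 of the 24 had p below 0.05 before adjustment, all lower). In DESeq2 0 passed without WT replicate 2 (2.16% of all genes passed, and 3 of the 24 had an unadjusted p under 0.05), 1 without WT replicate 3 (4.04% of all genes) and 0 without Flox replicate 4 (0.674% of all genes, and 4 of the 24 had an unadjusted p under 0.05). Kcnc4 did not pass in edgeR or without any single library other than Flox replicate 2. Its log2 fold change was -0.70 in edgeR, -0.61, -0.69 and -0.80 without WT replicates 2, 3 and 4, and -0.38 without Flox replicate 4.

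**Figure D5:**
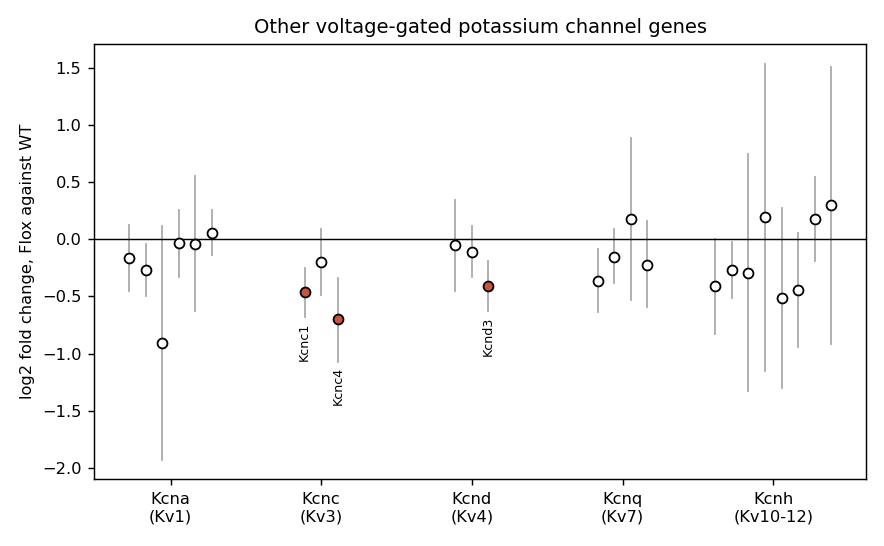
Log2 fold change in Flox against WT (y axis) with 95% intervals for 24 pore-forming Kv genes outside the Kv2 and silent families, grouped by family. Filled points passed an adjusted p under 0.05, namely Kcnc1 (-0.46), Kcnc4 (-0.70) and Kcnd3 (-0.41).

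Genes of proteins that bind Kv2 channels, or that belong to the families of such proteins, were examined next. Of 10 such genes 7 had an adjusted p, and 0 of these passed in DESeq2, where 8.25% of all genes tested did, so that a count of 0 in 7 is near the share of all genes. Kcne2, which encodes an accessory subunit of potassium channels and is named after its values were seen, had too few reads for an adjusted p. It had 5, 5 and 4 reads in WT and 20 and 22 in Flox. The Flox values lay above every WT value, at a log2 fold change of 2.12 (SE 0.783, DESeq2 unadjusted p = 0.00679), and the 95% interval of the fold change ran from 1.5 to 12.6. It was the only gene of the 10 with an unadjusted p under 0.05. Vapa and Vapb, which encode endoplasmic reticulum proteins that bind Kv2 channels, were at 0.19 (SE 0.128, DESeq2 adjusted p = 0.442) and -0.10 (SE 0.093, DESeq2 adjusted p = 0.635). The SNARE genes Stx1a and Snap25, whose proteins bind Kv2 channels, were at -0.11 (SE 0.129, DESeq2 adjusted p = 0.740) and 0.04 (SE 0.089, DESeq2 adjusted p = 0.865). Amigo1, the auxiliary subunit of Kv2 channels, named after its values were seen, had 2243, 2270 and 2017 normalized counts in WT and 2073 and 1814 in Flox, with a log2 fold change of -0.16 (SE 0.117, DESeq2 adjusted p = 0.481). For comparison, Esrrg itself, counted over all its exons and not the deleted one alone, had 1763, 1643 and 1726 in WT and 1504 and 1170.1 in Flox (log2 fold change of -0.35, SE 0.133, DESeq2 adjusted p = 0.0753).

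Genes with a profile over the 5 libraries close to that of Kcng4 were found among 12846 genes by the root mean square difference of centred log2 values. Among the nearest were A230056P14Rik (0.083), Gse1 (0.096), Gpatch2l (0.109) and Adar (0.11), an RNA editing enzyme, and the median distance was 0.491. Nearest to Kcns3 were Ankrd52 (0.033), Stxbp5l (0.054), Tmem151b (0.057), Dzip1 (0.066) and Mmel1 (0.076), with a median of 0.453. These lists had no gene in common. With 5 libraries such a likeness is a description.

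Markers of several cell types were abundant in the libraries beside those of dopaminergic neurons. Th, the rate-limiting enzyme of dopamine synthesis, had 9849 to 12813 normalized counts in WT and 10224 and 10945 in Flox, but Gad1, which makes GABA, had 9219 to 9840 in WT and 8284 and 7480 in Flox, and the astrocyte gene Gfap had 18865 or more in every library. Summed over 11 dopaminergic markers the level was 48627 to 57635 in WT and 50317 and 53158 in Flox. In DESeq2 0 of 11 passed (2 at an unadjusted p under 0.05), where 8.25% of all genes tested did. The log2 fold change was below 0 in 9 of the 11, against 50.9% of all genes tested, with a median of -0.15. Both Flox libraries lay below all WT libraries in 5 of the 11 and above them in 2, against 22.5% and 19.9% of all. Over 6 GABAergic markers the sum was 32696 to 32987 in WT and 32153 and 29913 in Flox. Of these markers, Gad2 was lower (-0.35, DESeq2 adjusted p = 0.0302) and Sst was higher. The sum of 12 microglial markers was 1545 to 2931 in WT and 5211 and 11162 in Flox. Of the 12, 10 were called higher and no marker was at 0 in any library. The sum of 8 endothelial markers was 128 to 288 in WT and 300 and 770 in Flox, with 3 called higher. Among all genes tested, 1.77% were called higher. Astrocyte (44091 to 67470 in WT, 47382 and 63561 in Flox) and oligodendrocyte sums (106197 to 156635, and 121519 and 144890) overlapped between groups, as did glutamatergic sums (4902 to 7365, and 4897 and 6183) apart from a slightly lower Flox replicate 4. The part of these markers in the channel results was not tested.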

How the data were processed

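BAC-TRAP RNA from 3 WT and 2 Flox libraries was sequenced by the authors from poly(A)-selected libraries that do not keep strand. The deposited values are raw read counts per gene. GEO's processing notes name Trim Galore (0.6.6), STAR (2.7.9a), HTSeq (0.11.3) and GRCm39, whereas the study's methods name GRCm38 and other versions of the aligner and counter, so the build is uncertain and no coordinates are taken from the counts. The 5 summary lines were left out. Of these reads, 3.18% to 4.45% lay outside genes and 5.62% to 5.78% overlapped several genes. Symbols were matched to 97.0% of IDs, and exon lengths and transcript GC content were taken, from GENCODE M21 by ID without version.

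All 29407 genes with a read in any library were fitted with DESeq2 (1.42.0, R 4.3.3; Wald test, two-sided, Benjamini-Hochberg over all genes), the tool of the study's methods, without covariates. A gene was called at an adjusted p under 0.05 and a fold change of at least 1.5. Normalized counts are counts divided by size factors. Intervals are 95% Wald intervals and are not corrected for the choice of genes. Alternatives were TMM library sizes, a filter on low counts (10 counts in 2 libraries), edgeR (4.0.16, quasi-likelihood), a replicate block, removal of trends on exon length and on GC content (the last added after seeing the data) and leaving out each library. The DESeq2 and edgeR tests were run on counts simulated with known fold changes from the dispersions fitted to these data. That simulation held no batch structure, so it checked the fitting and not the error rates in these libraries. Libraries differed by more than counting noise (chi-square per degree of freedom of 4.25 or more). The labels do not say that libraries are separate cohorts, so p-values measure the spread between these pools. Floors cover counting error only. Named genes were Esrrg, the family, called channel or partner genes and otherwise up to 4 with the highest WT level per kilobase, and the nearest profiles. Some genes, and the ratio of silent to Kv2 transcripts, are not reported here. The members and lists were chosen with earlier results of these data known.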

Additional observations from a re-analysis of the deposited data

How the results depend on the processing

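With a block on the replicate number, Kcng4 was at -1.05 and Kcns3 at -0.81, 231 genes were called in all and 1 of the 9 silent subunit and Kv2 genes, Kcns3 being lost. The labels give numbers 2 and 4 to both groups without saying what they share, and same-numbered libraries correlated weakly in their deviations (Pearson's r across genes of 0.15 and 0.13), so the samples were not taken as paired. The number of genes called, 500, was 180 with edgeR and 1297 without the fold threshold, and ran from 48 to 897 when 1 library was left out. Of the 9 genes, 2 were called in every alternative with both Flox libraries except the block (1, Kcng4). In edgeR Kcng4 and Kcns3 were both only just under the adjusted p threshold of 0.05. Without Flox replicate 4, Kcng4 was at -0.94 and Kcns3 at -0.58. The single Kv gene called became 0 with edgeR (9 at an unadjusted p under 0.05) and 3 without the fold threshold, and 0 to 1 with 1 library left out. The 3 that passed without a fold threshold became 0 with edgeR and 0 to 4 with 1 WT library left out. In those fits 14 to 24 of the 24 genes had an adjusted p. Directions turned, for genes whose log2 fold change was near 0. With the GC trend removed Kcnb2 was at -0.011, Kcnf1 at -0.029 and Snap25 at -0.008. With 1 library left out Kcnb2 ran from -0.084 (without Flox replicate 4) to 0.15, Kcnf1 from -0.098 (without WT replicate 2; -0.062 without WT replicate 4 and -0.023 without Flox replicate 4) to 0.2, and Snap25 from -0.0024 (without Flox replicate 4) to 0.084. The share of Kcns3 in the silent pool differed by -2.53 percentage points with raw counts in place of reads per kilobase and by -4.74 to -0.82 with 1 library left out, alternatives chosen after seeing the data. With the longest transcript as its length Kcns3 was at 164 per kilobase in WT. The causes were not tested. Independent filtering left 10 values of low-count members without an adjusted p. At 52 to 214 normalized counts per library the intervals of Kcng1, Kcns1, Kcng2, Kcnv1 and Kcnb2 are wide, and Kcng3 was not measurable at this depth.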
